A study of Arabidopsis thaliana with 4 samples.

Results

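The genes described here are 7 members of the ATG8 family and ATG3, taken by locus from the probe sets that the platform annotation gives a single gene name. They are APG8A (AT4G21980, also listed as ATG8A), ATG8B (AT4G04620), ATG8C (AT1G62040), ATG8D (AT2G05630), ATG8E (AT2G45170), ATG8F (AT4G16520), ATG8H (AT3G06420) and ATG3 (AT5G61500). All 8 genes had 1 probe set each, out of 22746 probe sets that are not array controls, and all 8 were among the 13648 kept after a filter on low signals. In the platform annotation 13513 probe sets have a single name.

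Arabidopsis mesophyll protoplasts, leaf cells stripped of their walls, received a plasmid that expresses KIN10 (AT3G01090), which encodes the kinase subunit of SnRK1, a complex switched on by low energy, or a control plasmid. Both groups were then kept in mannitol buffer at 23ºC in the light for 6 h, with 1 mg of DNA per transfection and 36 plants pooled for each pair. For the material of every array, 13 h of light and 11 h of dark are also listed. There were 2 experiments, each with 1 KIN10 array and 1 control DNA array, done by different people with different plants, DNA and array facilities. Expression was transient, and neither the transfected share of the cells nor the accession of the plants is given in the sources used here. No probe set had KIN10 as its single name, so the label could not be checked against its transcript.

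Autophagy carries portions of the cytoplasm to the vacuole inside double-membraned vesicles, and in plants it recycles amino acids and lipids when carbon or nitrogen runs short. ATG8 is a small ubiquitin-like protein that becomes joined to phosphatidylethanolamine in the growing membrane, where it helps the membrane expand and holds cargo receptors. ATG4 trims ATG8 to a terminal glycine, ATG7 activates it and ATG3 is the conjugating enzyme that passes it to the lipid. Yeast has a single ATG8 gene, whereas Arabidopsis has a family of paralogues. In Arabidopsis ATG8H and ATG8I end at that glycine and need no trimming by ATG4. SnRK1 acts upstream of autophagy in plants, in part through the ATG1 kinase complex.

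With KIN10, 7 of the 8 genes rose, ATG8D was not called and none fell (limma, adjusted p under 0.05 over all 13648 probe sets, with 0 of the 8 lower at an unadjusted p under 0.05). Of all tested probe sets 30.2% were called, 14.7% higher and 15.5% lower. On the scale of the array's hybridization spike-ins, 1318 of 13648 probe sets were called higher and 4301 lower, against 2006 and 2111 after median centring. Of the calls themselves, 23.5% were higher on the spike-in scale, against 48.7% after median centring. The same 7 genes were called on both scales. The changes ran from 0.48 for ATG8D to 2.24 for ATG8H on the log2 scale, with a median of 1.40, against a median of 0.03 over all tested probe sets. At least 2-fold higher in both experiments were 4 of the 8, ATG8H, ATG8E, ATG8F and ATG8B, as were 6.29% of all tested probe sets. All 8 were higher with KIN10 in both experiments, which held for 39% of tested probe sets. Because whole protoplast populations were measured, a change in fewer cells and a smaller change in every cell cannot be told apart.

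ATG8H, ATG8E and ATG8F had the largest mean changes. ATG8H had signals of 13119.6 and 20913 on the KIN10 arrays of experiments 1 and 2, against 2996.5 and 4778.5 on the control DNA arrays. Both KIN10 signals lay above both control signals, and the change was close to 4-fold on the scale as deposited in each experiment (4.38 and 4.38). After median centring ATG8H rose 4.74-fold (2.24 ± 0.33 as a log2 change with its SE, 2 arrays per group, limma adjusted p = 3.89e-10). Its centred log2 changes were 2.04 in experiment 1 and 2.45 in experiment 2.

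ATG8E had signals of 17653 and 13825 with KIN10, against 4985 and 3719 with control DNA. It was the only one of the 8 genes whose deposited signals were lower in experiment 2 in both groups, and its groups did not overlap. ATG8E rose 3.93-fold (log2 change 1.97 ± 0.33, limma adjusted p = 5.47e-08). After centring the gap between its lower KIN10 array and its higher control array was 1.64 on the log2 scale, more than for any of the other 7 genes.

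ATG8F gave the highest signals of the 8 probe sets, 26146 and 30526 with KIN10, against 6974 and 10546 with control DNA. Probe sets differ in how well they bind their transcript, so signals of different genes do not give the order of their transcript levels. ATG8F rose 3.57-fold (log2 change 1.83 ± 0.34, limma adjusted p = 1.27e-06), and its centred changes of 1.82 and 1.85 in experiments 1 and 2 lay closer together than those of the other 7 genes. As deposited its ratios were 3.75 and 2.89, further apart on the log2 scale than those of the other 7 genes, so this closeness depends on the centring.

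**Figure D1:**
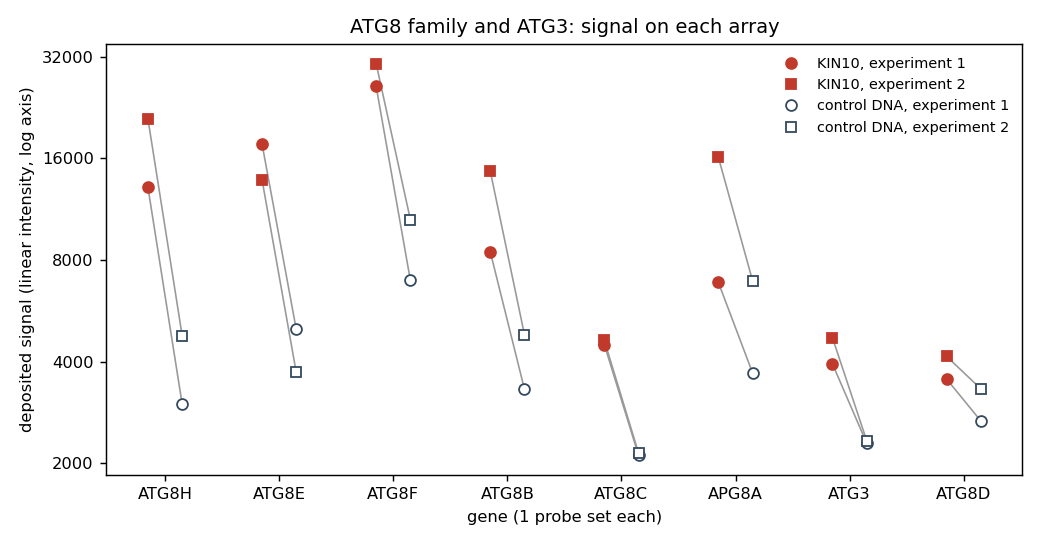
Deposited linear signal (log axis) of each gene on each array, with KIN10 arrays as filled points on the left and control DNA arrays as open points on the right of each gene, circles for experiment 1 and squares for experiment 2, and lines joining the arrays of an experiment. All lines fall from KIN10 to control DNA, and the KIN10 circle of APG8A (6866.5) lies just under its control square (6941).

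ATG8B, ATG8C and APG8A came next in the order of mean change. ATG8B had signals of 8475 and 14681 with KIN10, against 3319 and 4813 with control DNA, and rose 3.02-fold (log2 change 1.59 ± 0.33, limma adjusted p = 1.22e-05). Its groups did not overlap, although both of its signals in experiment 2 were higher than their counterparts in experiment 1. ATG8C had nearly equal signals in the experiments, 4499 and 4629 with KIN10, against 2116 and 2148 with control DNA. ATG8C rose 2.32-fold (log2 change 1.21 ± 0.30, limma adjusted p = 0.000504). Its deposited ratios of 2.13 and 2.16 were alike, whereas its centred log2 changes were 1.00 in experiment 1 and 1.43 in experiment 2.

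APG8A had signals of 6866.5 and 16111 with KIN10, against 3704 and 6941 with control DNA. The KIN10 signal of experiment 1 was below the control signal of experiment 2, so the groups overlapped, and the order held within each experiment. APG8A rose 2.25-fold (log2 change 1.17 ± 0.33, limma adjusted p = 0.00221). The centred control signals of APG8A differed by 1.42 on the log2 scale between experiments, which is more than its change with KIN10, as was also the case for ATG8D (0.83 against 0.48).

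ATG8D had the smallest change. Its signals were 3557 and 4149.6 with KIN10, against 2673 and 3328 with control DNA, which is 1.33 times higher in experiment 1 and 1.25 times in experiment 2. The deposited signals of its groups did not overlap, but the centred ones did. The log2 change of 0.48 ± 0.31 was not called (limma adjusted p = 0.247), and it was not called under any of the 15 other settings of the fit. On the spike-in scale its log2 change was 0.11 (limma adjusted p = 0.689).

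ATG3, the enzyme that joins ATG8 to lipid, had signals of 3941 and 4708 with KIN10, against 2296 and 2336 with control DNA. Both control signals were nearly the same, and both KIN10 signals lay above them. ATG3 rose 2.01-fold (log2 change 1.01 ± 0.30, limma adjusted p = 0.00482). Its mean change was smaller than those of the 6 ATG8 members that were called, a difference that was not tested. Its log2 changes were 0.69 in experiment 1 and 1.33 in experiment 2.

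Counted over the 8 genes, the deposited signals of the groups did not overlap for 7, all but APG8A, as for 21.9% of tested probe sets with KIN10 higher. After centring they did not overlap for 6, all but APG8A and ATG8D, as for 17.7% of tested probe sets.

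The rest of the ATG8 family was on the array as well. ATG8G (AT3G60640) had signals of 1624 and 1934 with KIN10, against 1135 and 939 with control DNA, and rose 1.86-fold (log2 change 0.89 ± 0.28, limma adjusted p = 0.00591). Its log2 changes were 0.43 in experiment 1 and 1.36 in experiment 2, the widest gap among the 9 ATG8 genes, and on the spike-in scale it was not called (limma adjusted p = 0.0941). The gene that the annotation calls APG8H (AT3G15580) is also listed as ATG8I and is a different gene from ATG8H. Its signals were 10523 and 17218 with KIN10, against 6666 and 10454 with control DNA. The log2 change of APG8H, 0.80 ± 0.33, was not called (limma adjusted p = 0.0542), and 6 of the 15 other settings called it higher, with limma adjusted p between 0.00495 and 0.0452 in those. Of the 9 ATG8 genes 7 were thus called higher.

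**Figure D2:**
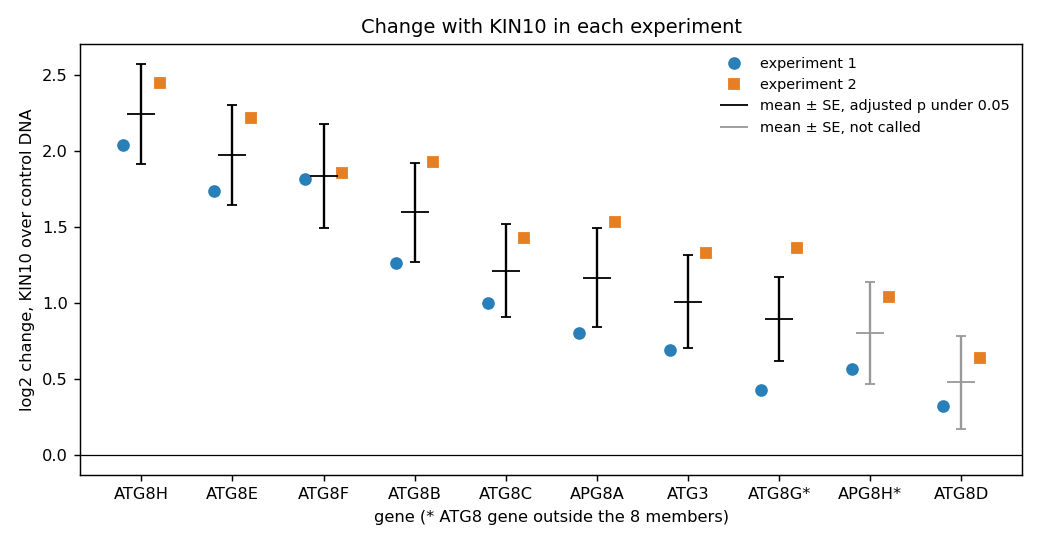
Log2 change with KIN10 over control DNA of the 8 genes and of the ATG8 genes ATG8G and APG8H, with circles for experiment 1, squares for experiment 2 and bars for the mean ± SE of the limma fit (n = 2 arrays per group), black where the adjusted p was under 0.05. Means run from 2.24 for ATG8H to 0.48 for ATG8D, and no point lies below 0.

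The paralogues changed by unequal amounts. A ratio of probe sets within an array does not depend on the scaling factor of the array, so the change of one gene over that of another was compared in each experiment. Among the 7 ATG8 members there are 21 pairs, and 18 of them had the same order of change in both experiments. The log2 change of ATG8H exceeded that of ATG8D by 1.72 in experiment 1 and 1.81 in experiment 2, that of ATG8E by 1.41 and 1.58, and that of ATG8F by 1.49 and 1.22. ATG8H also exceeded ATG8C by 1.04 and 1.02. These are the 4 pairs of members that differed by at least 1 in both experiments. ATG8H and APG8H, whose proteins both end at the lipid-bound glycine, differed by 1.47 and 1.41.

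The order of neighbours was less certain. Of the 6 neighbouring pairs of members in the order of mean change, only APG8A and ATG8D differed by more than the combined SE of their changes (0.69 against 0.45). With all 9 ATG8 genes in the order, ATG8G and APG8H lay between APG8A and ATG8D. Of those 8 neighbouring pairs 0 differed by more than the combined SE. The combined SE treats the 2 changes of a pair as independent. Both come from the same 4 arrays, so it leaves out their pairing within arrays. For ATG8E over ATG8F, ATG8F over ATG8B and ATG8C over APG8A the order turned between the experiments. With 2 experiments an exact permutation test of such a ratio within experiments cannot give a two-sided p below 0.5, so these differences are given without a test.

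**Figure D3:**
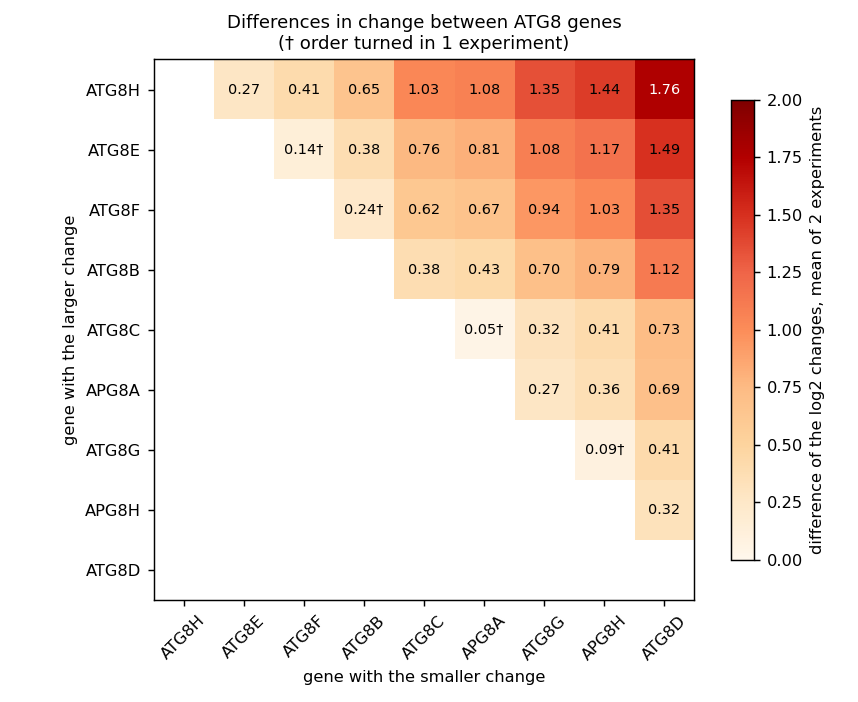
Difference in log2 change between each pair of the 9 ATG8 genes, as the mean of both experiments, with the gene that changed more down the side and the gene that changed less along the bottom. The largest difference is that between ATG8H and ATG8D (1.76), followed by ATG8E and ATG8D (1.49), and daggers mark the 4 pairs whose order turned between the experiments.

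Experiments 1 and 2 gave the 8 genes much the same order. ATG8H ranked first and ATG8D last of the 8 in both. The median log2 change was 1.13 in experiment 1 and 1.69 in experiment 2, and all 8 genes had the larger centred change in experiment 2, as did 69.3% of all tested probe sets. This tilt moves with the centring, which lowered each change of experiment 1 by 0.09 and raised each change of experiment 2 by 0.32 on the log2 scale. In deposited ratios 5 of the 8 genes had the larger change in experiment 2. The absolute difference between experiments had a median of 0.45 for the 8 genes and 0.41 for all tested probe sets.

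**Figure D4:**
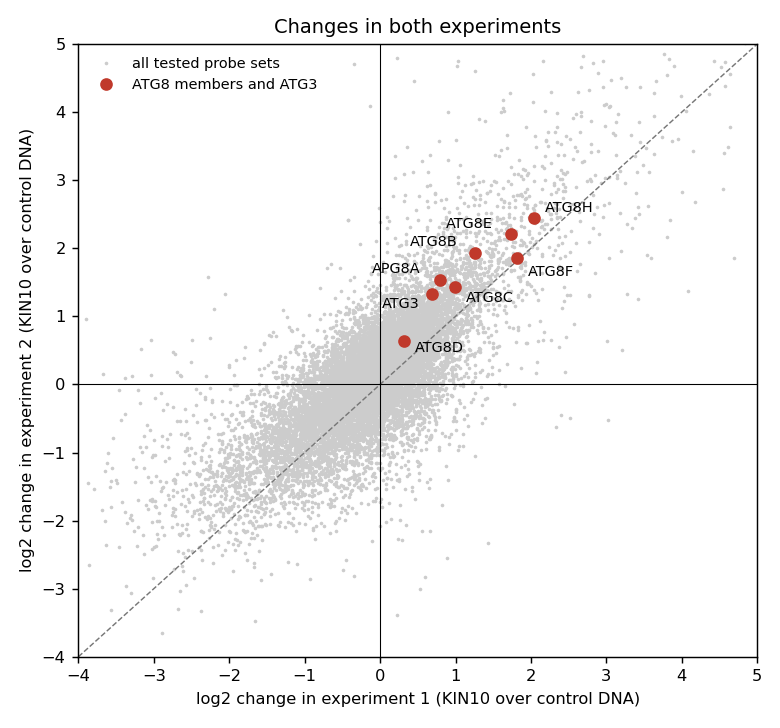
Log2 change with KIN10 over control DNA in experiment 1 (horizontal) and experiment 2 (vertical) for all tested probe sets in grey and the 8 genes in red, with the dashed line at equal change. 67 grey points lie outside the plotted range, and the 8 red points lie above the dashed line, ATG8F (1.82 and 1.85) closest to it.

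The calls rest on the comparison within experiments. After centring, the control signals of the 8 genes were 0.09 to 1.42 higher in experiment 2 than in experiment 1 on the log2 scale, against a median of 0.42 over all tested probe sets. Without the experiment as a block the SE of the 8 changes grew to between 0.68 and 0.88. In that fit limma called none of them (adjusted p from 0.243 for ATG8H to 0.936 for ATG8D). An unadjusted limma p under 0.05 was found there for 3 of the 8, and for 1692 of all 13648 probe sets. With KIN10 array 1 left out and no block, limma called ATG8H alone (log2 change 3.04). With KIN10 array 2, control array 1 or control array 2 left out, limma called none of the 8, and none had an unadjusted p under 0.05.

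The fit with the block has 1 residual degree of freedom and an estimated prior of 1311, so the SE of each gene (0.30 to 0.34 for the 8) is set by probe sets of like brightness rather than the gene's own spread. Under the 10 other settings that kept all arrays and the block, 7 of the 8 genes were called higher each time, with ATG8D the exception in each. The size of the p-values was less stable, and the limma adjusted p of ATG8H ran from 5.22e-11 to 0.000207 over those settings. Those settings included 5 other scalings, of which the spike-in scale gave the smallest changes, 1.87 for ATG8H and 0.64 for ATG3, with a median of 1.03 over the 8 genes. On that scale the median change of all tested probe sets was -0.34. Median centring and the spike-in scale each subtract a constant from an array, so the distance of the 8 genes from that median could not change.

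**Figure D5:**
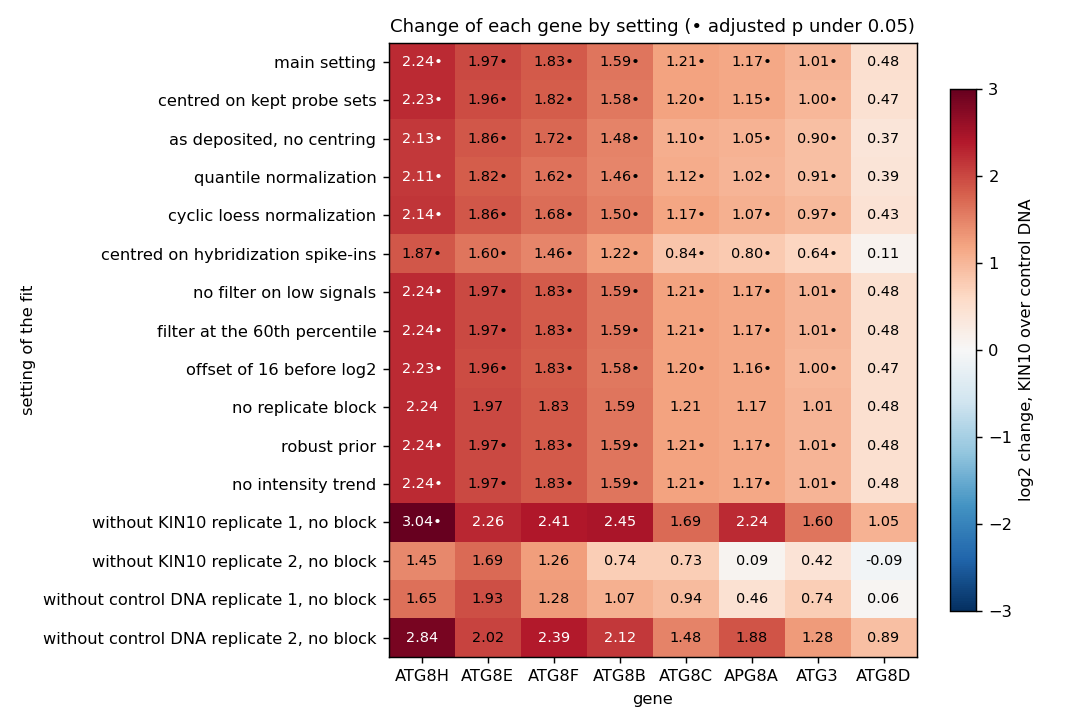
Log2 change with KIN10 over control DNA of each gene (columns) under the main setting and 15 others (lines), coloured by the change, with a dot where the limma adjusted p was under 0.05. Dots fill the 7 columns left of ATG8D wherever all arrays and the block were kept, and are missing without the block and with 1 array left out, apart from ATG8H without KIN10 replicate 1 (3.04).

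Beyond ATG8 and ATG3, 38 genes of autophagy and of the TOR complex, a kinase that holds autophagy back when nutrients are ample, had been listed. Single-name probe sets covered 11 of them, 13 probe sets in all, and each passed the filter. Of these 13, 6 were called higher (14.7% of all tested probe sets were), none was called lower (none lower at an unadjusted p under 0.05 either) and the median log2 change was 0.66. AT5G66930, listed as ATG101, a subunit of the ATG1 kinase complex that starts autophagosome formation, had signals of 4599.6 and 4326 with KIN10, against 1262 and 1424 with control DNA. ATG101 rose 3.60-fold (log2 change 1.85 ± 0.30, limma adjusted p = 1.13e-08), between the mean changes of ATG8F and ATG8E.

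The other calls on that list were for loci with no gene name among RefSeq's symbols and synonyms, so they are given by locus. AT1G77890 had 2 probe sets, of which 1 was called. That one rose 2.30-fold (log2 change 1.20 ± 0.29, limma adjusted p = 0.00023). The other, a dim one, was at 0.66 ± 0.47 and was not called, and the difference between them was not tested. AT3G61960 rose 1.94-fold, AT3G53930 1.87-fold and AT5G50230 1.80-fold. On the spike-in scale AT5G50230 was not called (log2 change 0.48, limma adjusted p = 0.0686). AT2G37840 had a log2 change of 0.70 ± 0.28 on the probe set that was called (limma adjusted p = 0.0378) and 0.66 ± 0.28 on the one that was not, and the call was lost in 6 of the 10 other settings with all arrays and the block (limma adjusted p between 0.0537 and 0.332 in those). The changes of AT3G59950 (0.60 ± 0.29), AT3G18770 (0.46 ± 0.45) and AT2G32760 (0.36 ± 0.27) were not called. RAPTOR1 (0.37 ± 0.30) and RAPTOR2 (-0.29 ± 0.34), which encode the substrate-binding subunit of the TOR complex, were not called either. Without the block limma called none of these 13 probe sets or of ATG8G and APG8H, of which 1 in all had an unadjusted p under 0.05, and with KIN10 array 1 left out and no block it called ATG101 alone.

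The genes most like the 8 were sought among 7417 other tested probe sets with a single name, by the distance between their log2 changes in both experiments and the medians of the 8 (1.13 and 1.69). The 5 nearest were FYD (AT3G12570; 1.12 and 1.69), AT1G22930 (1.14 and 1.73), AT3G43230 (1.11 and 1.64), SOL1 (AT3G22760; 1.17 and 1.66) and TOPP8 (AT5G27840; 1.20 and 1.68). Likeness over 2 changes is a loose measure, since 1085 of the 7417 fell within the range of the 8 genes in both experiments.

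Markers of the cell types were few. Of 32 listed markers 3 had a probe set with a single name. The mesophyll markers were bright on every array, with LHCB4.1 at 30412 and 41795.5 with KIN10, against 24361 and 25389.9 with control DNA, and RCA at 25411 and 39109.5 with KIN10, against 17903 and 30260.5 with control DNA. FMA, a guard cell marker, had signals of 479 and 146 with KIN10, against 586 and 262 with control DNA. The 3 markers were not called (limma, adjusted p between 0.168 and 0.393), and their part in the results above was not tested.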

How the data were processed

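The deposited values are Affymetrix intensity values per probe set on a linear scale, and GCOS 1.0 is the tool named in the submitters' processing notes, with settings not given in the sources used here. The authors' table has a mean intensity, after trimming 2% at each end, of 1500.13 to 1500.15 on every array. Median signals were 522 (KIN10 1), 275.5 (KIN10 2), 490 (control 1) and 343.5 (control 2), and the number of arrays limits the precision. Detection calls were not used.

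Log2 intensities were taken (1 value at 0 was raised to its array's smallest value above 0), the 64 array control probe sets were taken out and the median of each array was subtracted. Probe sets with a mean log2 signal below the 40th percentile were removed. The 13648 probe sets left were tested together in limma 3.58.1 (R 4.3.3, lmFit and a trended eBayes) with experiment in the model, and p-values were adjusted by Benjamini-Hochberg. Called means an adjusted p under 0.05. Experiment is a block because the series' design text describes KIN10 and control transfections in pairs. Arrays of an experiment also deviated together from their group means (Pearson r = 0.705 across probe sets, which are not independent).

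Names come from the platform annotation, with symbols brought up to date through RefSeq (TAIR10.1), which matched 13436 of 13513 single names. The 503 with several names were tested and stay unnamed. Whether probes bind paralogues was not tested, and probe and gene sequences were not used here. The 8 genes and all lists were chosen with earlier results of these data known. Named are all 8 genes, every listed autophagy gene with a single-name probe set and the 5 nearest genes. Alternatives were 5 other scalings, 2 filters, an offset of 16, 2 variance models, no block, and each array left out (without the block).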

Additional observations from a re-analysis of the deposited data

How the results depend on the processing

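With the replicate block kept, the count of 7 higher among the 8 genes and 0 lower was the same under all 10 alternatives with all arrays, and no gene among them changed direction. No replicate block gave 0 higher of the 8 genes, 0 of the 15 other autophagy probe sets (ATG8G and APG8H included, 7 higher with the block), and 122 higher and 51 lower of all 13648, against 2006 and 2111. On the spike-in scale 4 of the 15 were higher, 1318 of all were higher and 4301 lower, and AT2G32760, not called, had a log2 change of -0.016. Compared with median centring, that scale moves the change of every probe set by the same amount. The size of this shift comes from the measured spike-in and median signals of the arrays, and its cause was not tested. The spike-in median log2 signal was 11.31 with KIN10 and 10.99 with control DNA in experiment 1, and 10.42 and 10.23 in experiment 2. With 1 array left out, counts ran from 0 to 1 for the 8 genes and from 0 to 1 for the 15, and from 59 to 697 higher and 8 to 358 lower for all. The median log2 change of the 8 was lowest without KIN10 array 2 (0.73) and highest without KIN10 array 1 (2.25). Some uncalled genes changed sign: ATG8D ran from -0.093 to 1.05, APG8H from -0.012 to 1.62, RAPTOR1 from -0.16 to 0.90 and RAPTOR2 from -0.91 to 0.33. Leaving out an array unpairs an experiment, so these fits carry the difference between experiments, and the lone array is assumed to vary like the others. No alternative was left out. All signals of the 8 genes, 2116 at the lowest, lay above the 40th percentile of their array (127.9 to 339).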
